A study of Mus musculus with 11 samples.

Results

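The Duxbl genes, Duxbl1, Duxbl2 and Duxbl3, are homeobox genes of mouse chromosome 14, and their DNA dosage was followed in low-coverage whole-genome sequencing of mouse embryonic stem cells (mESC). The measure was the depth of sequencing bins of about 50 kb, divided by the median autosomal bin of the same library and called relative depth. Members were the bins with a midpoint in mm10 chr14:25507039-26496423, an interval selected on the difference in depth that the long-term libraries of Tet iTKO cells showed from those of Ctrl cells. They were 20 of 47924 autosomal bins and of 52958 bins in all, and the 79 bins within 2 Mb on either side served as flanks. Because the long-term libraries chose the interval, their values are given as a description without a test.

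The data were 11 libraries in 7 groups. Ctrl cells carried Cre/ERT2 and Rosa26-LSL-H2b-Egfp, a tamoxifen-activated recombinase under the ubiquitin C promoter and a green reporter that Cre switches on. The Tet lines carried the same alleles and Tet1,2,3 fl/fl, so that tamoxifen removes all 3 Tet genes, and they are called Tet Tfl before and Tet iTKO after the treatment. One library of each genotype was made before treatment and 1 after the acute treatment, which was 1 µM tamoxifen for 2.5 days and 4 further days of culture. A further 3 libraries of each genotype came from monoclonal populations kept for 30 days after tamoxifen. The last library, Dnmt TKO, came from cells that lack Dnmt1, Dnmt3a and Dnmt3b from the germline and was labelled long-term without tamoxifen. All cells grew in 2i medium on fibroblast feeders and were sorted as CD326+ and Thy1.2-, and Ctrl and Tet cells also as GFP+. The pre-treatment and acute libraries are called early below. Nothing in the labels ties a long-term population to the line of an early library, and a population grown from 1 cell is 1 clone.

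The Duxbl genes belong to the double-homeobox family, whose proteins bind DNA through a pair of homeodomains. They are known from the early mouse embryo, where the related factor Dux switches on genes of the 2-cell stage and Duxbl is one of the genes that limit this program. Such genes often lie in tandem arrays, and arrays of near-identical copies gain and lose copies by unequal exchange between them.

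In the reference genome the Duxbl genes sit in such an array. Aligned with itself, the sequence of the interval held a unit of 139 to 140 kb in 3 tandem copies, at chr14:25875156-26014923, chr14:26014924-26154537 and chr14:26154538-26293544. Copies 1 and 2 together matched copies 2 and 3 at 99.81% of 278914 aligned bases, and copy 1 matched copy 3 at 99.70% of 139259 bases. Each copy carries 1 Duxbl gene on the plus strand, about 103 kb into the unit. By the GENCODE M21 annotation Duxbl1 (ENSMUSG00000048502.14) lies at chr14:25978577-25990088, Duxbl2 (ENSMUSG00000072675.12) at chr14:26118349-26129763 and Duxbl3 (ENSMUSG00000072672.10) at chr14:26257962-26269436. Over the whole gene Duxbl2 and Duxbl3 differed at 38 aligned bases, while Duxbl1 differed from Duxbl2 at 267 and from Duxbl3 at 232.

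The coding sequence did not tell the genes apart. The longest coding sequence of each has 1050 bases in 5 coding exons, and all 1050 were identical between Duxbl1, Duxbl2 and Duxbl3. The stretches that encode the homeodomains are printed once for this reason, from Duxbl1 in mm10, with capitals marking 8 bases that both homeobox stretches share at a like place.
Coding exon 2, chr14:25984146-25984300: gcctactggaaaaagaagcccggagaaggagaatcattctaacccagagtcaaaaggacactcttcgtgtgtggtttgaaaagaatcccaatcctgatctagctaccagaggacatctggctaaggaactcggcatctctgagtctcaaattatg
Coding exon 3, chr14:25986765-25986858: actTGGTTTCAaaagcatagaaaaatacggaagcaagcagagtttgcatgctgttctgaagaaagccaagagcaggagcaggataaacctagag
Coding exon 4, chr14:25987468-25987613: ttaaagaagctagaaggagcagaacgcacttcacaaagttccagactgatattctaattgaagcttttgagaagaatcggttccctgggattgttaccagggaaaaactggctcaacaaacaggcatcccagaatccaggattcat
Coding exon 5, its first 60 bases, chr14:25988759-25988818: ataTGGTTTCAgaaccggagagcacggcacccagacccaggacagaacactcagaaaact

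Differences between the genes lay outside the coding exons. Of the intron after coding exon 2, the 100 bases before its first insertion or deletion that differed most are printed next in mm10, with capitals at the 2 positions that separate Duxbl1 from Duxbl2 and Duxbl3.
Duxbl1, chr14:25985226-25985325: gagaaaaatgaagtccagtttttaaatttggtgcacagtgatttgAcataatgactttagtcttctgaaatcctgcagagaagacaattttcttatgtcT
Duxbl2, chr14:26124820-26124919: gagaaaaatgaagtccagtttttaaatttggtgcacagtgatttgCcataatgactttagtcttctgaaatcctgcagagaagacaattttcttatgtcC
Duxbl3, chr14:26264469-26264568: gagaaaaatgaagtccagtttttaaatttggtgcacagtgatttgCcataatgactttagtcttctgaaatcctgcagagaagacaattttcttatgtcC

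Reads of about 50 bases cross such positions seldom. Of all 50-base words of copy 1, 98.2% were also found in another copy, and in copies 2 and 3 the share was 99.8%. For words of 70 bases the shares were 97.3% and 99.7%. A read from the array can therefore rarely be given to 1 copy. The study's methods name BWA-mem with default options, and whether reads that fit several places were kept in the depth is not given in the sources used here. The depth of the Duxbl bins is read below as the dosage of the array as a whole. The array covered 8 bins to at least 80%, and the bin at its left border to 55.9%. Because they share their sequence, the 8 array bins are not independent of each other in the counts below. Of the other 11 members, 7 lay to the left and 4 to the right in single-copy sequence.

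The genes that share the array with Duxbl were also repeated. Of the 17 protein-coding genes that overlap the interval, 13 overlapped the array and 11 lay inside 1 copy. Each copy has a Plac9 gene (Plac9a, Gm9780 or Plac9b), a Tmem254 gene (Tmem254a, Tmem254c or Tmem254b), which encodes a transmembrane protein, and a Cphx gene (Cphx1, Cphx2 or Cphx3), another homeobox gene of the early embryo. The GENCODE model of Cphx3 runs from copy 2 into copy 3. Anxa11, which encodes an annexin, crosses the left border. Zmiz1, Ppif and Zcchc24 lie to the left of the array and Slmap to its right. RefSeq promoter windows (GRCm38.p6, 250 bases before to 50 after the start) were held for 14 of the 17 genes and not for Duxbl1, Duxbl2 and Duxbl3. Those of Cphx2 (chr14:26082043-26082342, plus strand) and Cphx3 were identical over all 300 bases, and that of Cphx1 shared 296 of them in a row. The window is shown for the homeobox neighbour that lies beside Duxbl in every copy, with capitals from the start site.
Cphx2: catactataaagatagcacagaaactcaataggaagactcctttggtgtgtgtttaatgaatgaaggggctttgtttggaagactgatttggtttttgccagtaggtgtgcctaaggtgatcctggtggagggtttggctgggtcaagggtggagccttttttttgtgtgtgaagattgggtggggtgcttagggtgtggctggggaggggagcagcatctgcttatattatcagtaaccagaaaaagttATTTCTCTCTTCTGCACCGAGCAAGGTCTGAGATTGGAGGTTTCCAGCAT

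The libraries held 554.7 to 812.1 Mb of mapped bases, or 215 to 315 reads of 50 bases in a median bin. The median of the flank bins was 0.958 to 0.992 over the 11 libraries, with the left flank at a mean of 0.908 to 0.952 and the right flank at 1.066 to 1.104. Relative depth of the X chromosome was 0.56 to 0.592. That of the Y chromosome was 0.0269 to 0.0381 in the 4 early libraries and 0.457 to 0.558 in the 7 long-term ones, so early and long-term libraries differed in more than time in culture in both genotypes. Stage and line of cells cannot be told apart in any comparison of early with long-term libraries.

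The array stood at 4 separate levels. It was high in long-term Ctrl, low in early Ctrl, in between in all 5 Tet libraries and lowest in Dnmt TKO, while the single-copy bins on either side ran together. The plot of depth across the interval shows the steps at both borders of the array.

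**Figure D1:**
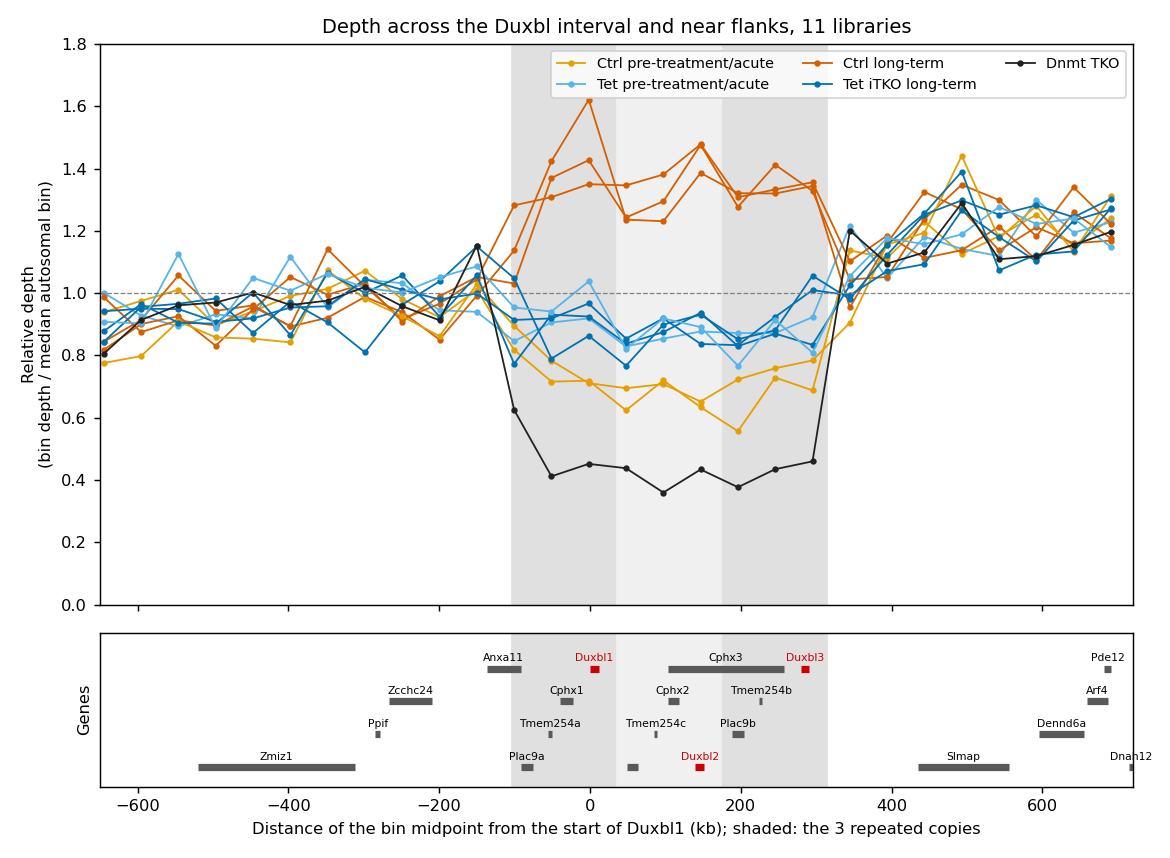
Relative depth of each bin (vertical axis, 1 is the median autosomal bin) against the distance of its midpoint from the start of Duxbl1 in kb, 1 line per library, coloured by group. Shading marks the 3 repeated copies and the lower panel the protein-coding genes, with the Duxbl genes in red; over the shaded copies the groups separate, with long-term Ctrl above 1.2 and Dnmt TKO below 0.5 in the 8 array bins.

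Long-term Ctrl had a relative depth over the 8 array bins of 1.36, 1.36 and 1.35 in its 3 libraries. Long-term Tet iTKO had 0.88, 0.88 and 0.908. The 2 groups lay far apart, with means of 1.36 ± 0.0034 and 0.889 ± 0.016 (SD, n = 3). Counting alone gave a 95% interval of 1.306 to 1.417 in the second long-term Ctrl library. The SD of long-term Ctrl was smaller than this error and is not a measure of the spread between clones. In the early Ctrl libraries the value was 0.673 before treatment and 0.727 after acute treatment. Before treatment Tet Tfl had 0.882, and acute Tet iTKO had 0.888. Dnmt TKO had 0.421. Only in long-term Ctrl did the array exceed the median autosomal bin, and the 5 Tet libraries spanned no more than 0.88 to 0.908.

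A diploid genome of the reference build would hold 6 copies of the unit, so 6 times the relative depth gives copy equivalents per diploid genome. They assume that array reads were kept as fully as other reads, and their 95% intervals, exact Poisson on reads of 50 bases, cover counting error only. Long-term Ctrl had 8.14 (7.87 to 8.42), 8.16 (7.83 to 8.50) and 8.12 (7.82 to 8.44) copy equivalents. The 2 early Ctrl libraries had 4.04 (3.84 to 4.24) and 4.36 (4.14 to 4.59). Tet Tfl before treatment had 5.29 (5.04 to 5.55), acute Tet iTKO 5.33 (5.07 to 5.59), and the long-term Tet iTKO libraries 5.28, 5.28 and 5.45. Dnmt TKO, with 760 reads in the array, had 2.53 (2.35 to 2.71). The intervals of long-term Ctrl, Tet, early Ctrl and Dnmt TKO did not overlap each other, while those within the Tet libraries overlapped throughout. With reads of 70 bases they were wider, and still apart: early Ctrl reached up to 4.63 and Tet down to 4.98. Scaled to the flanks in place of the whole genome, the group means were 8.34 in long-term Ctrl, 4.30 in early Ctrl, 5.44 over all Tet libraries and 2.59 in Dnmt TKO, in the same order.

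**Figure D2:**
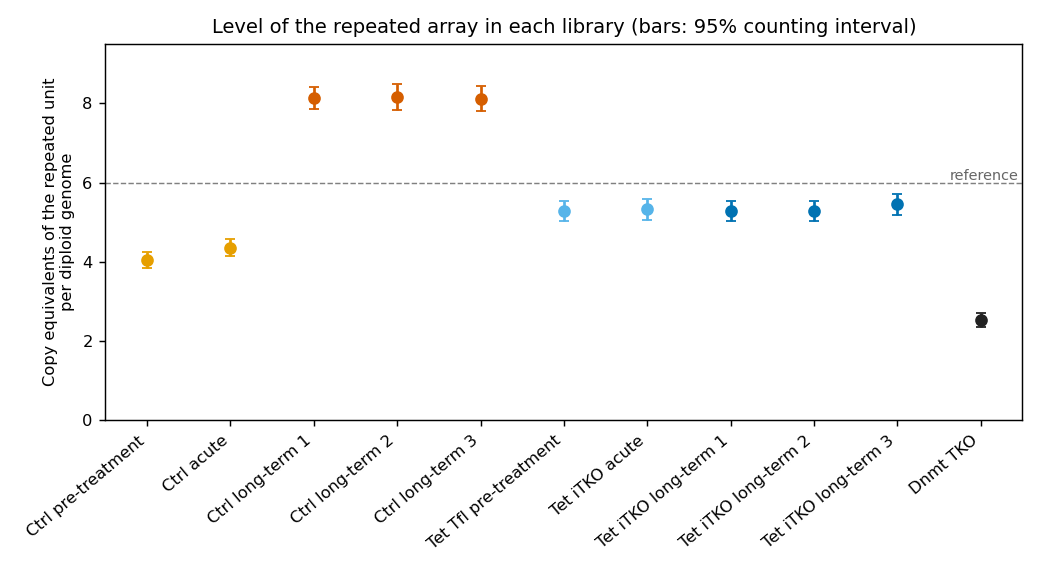
Copy equivalents of the repeated unit per diploid genome (vertical axis, from 0) in each of the 11 libraries; points are 6 times the mean relative depth of the 8 array bins, bars are 95% counting intervals and the dashed line is the reference number of 6. Long-term Ctrl sits at 8.12 to 8.16, early Ctrl at 4.04 and 4.36, the 5 Tet libraries at 5.28 to 5.45 and Dnmt TKO at 2.53.

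The bins that hold the single Duxbl genes followed the array. Each gene lies in 1 bin, at chr14:25952263-26001731 for Duxbl1, chr14:26100670-26150139 for Duxbl2 and chr14:26249078-26298546 for Duxbl3. In the Duxbl1 bin relative depth was 1.35, 1.62 and 1.43 in long-term Ctrl and 0.925, 0.863 and 0.967 in long-term Tet iTKO. The same bin had 0.719 and 0.711 in Ctrl before and after acute treatment, 0.919 in Tet Tfl, 1.04 in acute Tet iTKO and 0.452 in Dnmt TKO. Long-term Ctrl was above every other library here, and Dnmt TKO was below every other.

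In the Duxbl2 bin long-term Ctrl had 1.48, 1.39 and 1.48, and long-term Tet iTKO 0.937, 0.931 and 0.837. Ctrl had 0.634 before and 0.652 after acute treatment, Tet Tfl had 0.877, acute Tet iTKO 0.891 and Dnmt TKO 0.434. Long-term Ctrl was again highest and Dnmt TKO lowest. Both early Ctrl values were below all Tet values, although their counting intervals (0.546 to 0.732 before and 0.556 to 0.759 after acute treatment) overlapped that of the third long-term Tet iTKO library (0.723 to 0.964).

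In the Duxbl3 bin long-term Ctrl had 1.36, 1.34 and 1.33, and long-term Tet iTKO 0.834, 1.06 and 1.01. Ctrl had 0.688 and 0.784, Tet Tfl 0.923, acute Tet iTKO 0.809 and Dnmt TKO 0.460. Acute Ctrl and acute Tet iTKO lay within each other's counting intervals in this bin (0.678 to 0.901 and 0.696 to 0.935). Between the genes no order held over the libraries, since the Duxbl1 bin was lowest of the 3 in 2 libraries, the Duxbl2 bin in 5 and the Duxbl3 bin in 4.

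**Figure D3:**
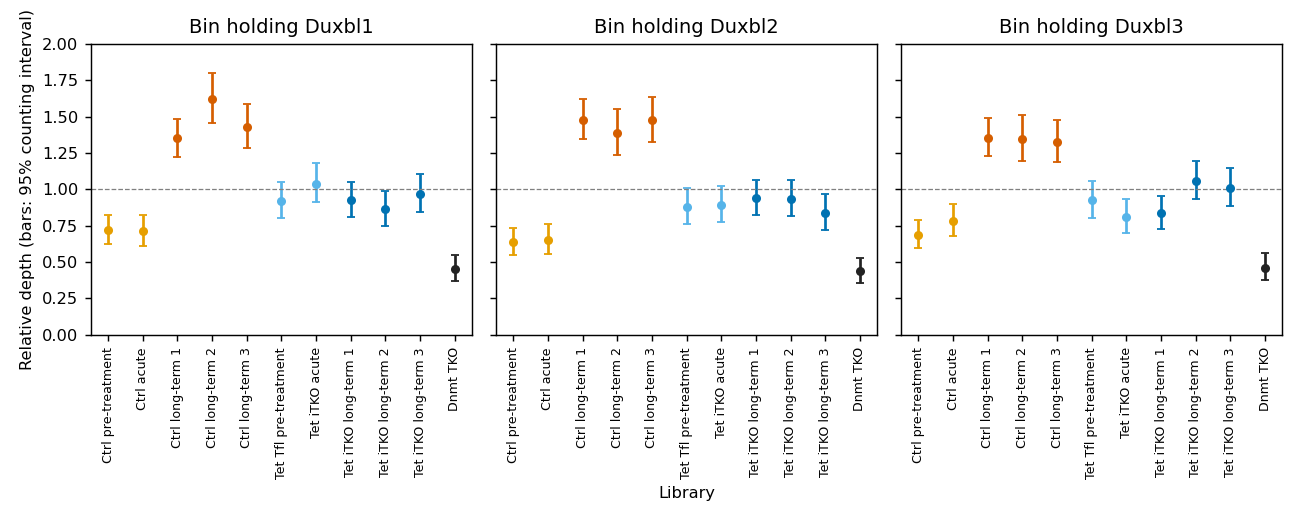
Relative depth (vertical axis, from 0; bars are 95% counting intervals) of the bins that hold Duxbl1, Duxbl2 and Duxbl3 in each of the 11 libraries, with the median autosomal bin as a dashed line. In all panels long-term Ctrl is highest, at 1.33 to 1.62, and Dnmt TKO lowest, at 0.434 to 0.460.

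Within a library the SD over the 8 array bins was 0.033 to 0.124, against 0.043 to 0.080 expected from the number of reads alone, and it was above the expected value in 6 of 11 libraries. The second long-term Ctrl library had the widest spread, 0.124 against 0.080 expected, with 1.52 in copy 1 and 1.28 in copy 2. Averaged by copy, long-term Ctrl had 1.33 to 1.52 in copy 1, 1.28 to 1.40 in copy 2 and 1.33 to 1.34 in copy 3, and Dnmt TKO had 0.432, 0.411 and 0.424. No copy stood apart from the others in every library. The bin at the left border was between the array and its neighbours, at 1.15 ± 0.126 in long-term Ctrl and 0.912 ± 0.137 in long-term Tet iTKO (SD, n = 3).

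The members outside the array showed no such steps. The 7 bins on the left, with Zmiz1, Ppif and Zcchc24, had a mean relative depth of 0.974 ± 0.034 in long-term Ctrl and 0.979 ± 0.019 in long-term Tet iTKO, and 0.935 to 1.04 over all 11 libraries. The 4 bins on the right, which include a part of Slmap, had 1.16 ± 0.023 and 1.16 ± 0.051. At the edges of the interval, the last bin outside on the left had 0.890 ± 0.056 in long-term Ctrl and 0.931 ± 0.046 in long-term Tet iTKO, and the first inside 0.955 ± 0.007 and 0.931 ± 0.066. The last bin inside on the right had 1.25 ± 0.106 and 1.32 ± 0.064, and the first outside 1.22 ± 0.081 and 1.17 ± 0.090. Both edges of the interval lie several bins away from the steps at the array.

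Between the long-term groups, Tet iTKO minus Ctrl was −2.81 copy equivalents, a ratio of 0.655. All 3 Tet iTKO libraries were below all 3 Ctrl libraries in 8 of 8 array bins, in 0 of the 11 single-copy members and in 3 of 79 flank bins, where the background over all autosomal bins was 5.56%. This contrast chose the interval, so nothing is read from the count. Averaged over all 20 members the difference in relative depth was −0.198, smaller than over the array because 11 members are single-copy.

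Between stages the genotypes gave different values. In Ctrl the array had 8.14 copy equivalents long-term and 4.20 early, a ratio of 1.94. All 3 long-term Ctrl libraries were above both early ones in 8 of 8 array bins and 1 of 11 single-copy members, against a background of 10.6%. In the Tet lines the means were 5.34 long-term and 5.31 early. None of the 8 array bins had all long-term Tet libraries above both early ones (background 10.7%) or all below them (background 10.2%). The long-term libraries of both genotypes chose the interval, so these values carry no test. Early and long-term libraries also differed in Y chromosome depth in both genotypes. Stage and line of cells therefore cannot be told apart in these values.

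The rule for the interval used no value of the early libraries, although earlier results of all libraries were known when it was set, and they were compared with a test. The question was whether early Tet and early Ctrl libraries differed at the array, before or soon after the Tet genes were deleted. Each genotype had 1 library per stage, and the labels do not say which line each came from. Genotype and line of cells therefore cannot be told apart in this comparison. The 2 early Tet libraries were above both early Ctrl libraries in 8 of 8 array bins, against 16.8% of all autosomal bins, and in 3 of 11 single-copy members. As the array bins follow 1 shared dosage, the 8 are not separate observations of this difference. A limma fit over all 47924 autosomal bins gave the early Tet minus early Ctrl difference in log2 relative depth. Each early group is 1 library, and the fit takes its spread from the long-term groups. Those same groups chose the interval, so the p-values of the members are not independent of that choice. It called 25 bins at an adjusted p below 0.05, which is 0.0522%, with 20 higher and 5 lower in Tet. Among them were 2 of the 20 members, the bins with Duxbl1 and Duxbl2.

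The Duxbl1 bin was higher in early Tet by 0.45 ± 0.09 on the log2 scale (SE; limma adjusted p = 0.036) and the Duxbl2 bin by 0.45 ± 0.09 (limma adjusted p = 0.0178). The first call rested on a narrow margin, and it was lost without the third long-term Ctrl library (limma adjusted p = 0.0502) and when only bins of mean relative depth 0.5 to 1.5 were tested (limma adjusted p = 0.0655). The Duxbl3 bin had 0.23 ± 0.095 (limma adjusted p = 0.927). That the genes differ from each other was not tested. All 8 array bins had positive values, from 0.23 to 0.45 with a mean of 0.33. Their unadjusted limma p was under 0.05 in all 8, as it was in 2461 of the 47924 bins tested. The median over all tested bins was 0.00. The flank bins ran from −0.17 to 0.21, 2 of 79 had an unadjusted p under 0.05, and none was called.

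In copies, early Tet had 5.31 and early Ctrl 4.20, a difference of 1.11. A window of 8 bins laid over the array, chosen after seeing the data, differed by 0.34 ± 0.03 (log2, SE) and ranked 4 by size among 5981 such windows of the autosomes. As single bins, those of Duxbl1 and Duxbl2 ranked only 23 and 22 by size among the 25 bins called. Before tamoxifen the values were 4.04 copy equivalents in Ctrl and 5.29 in Tet Tfl. The labels call these libraries not activated, yet describe the GFP+ sort for them too, and that reporter needs Cre, so whether their Tet genes were all still intact was not tested.

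**Figure D4:**
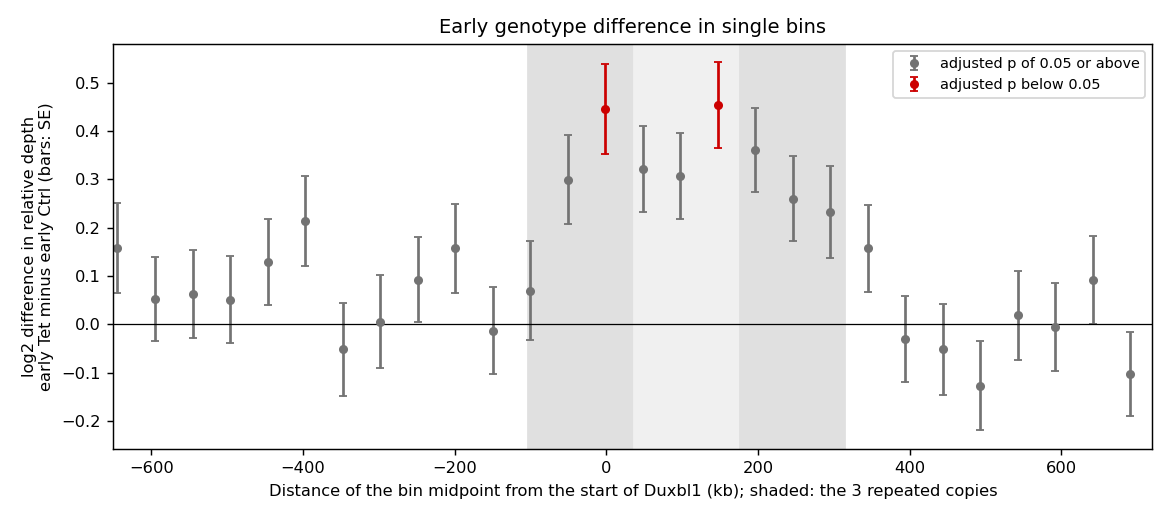
Difference in log2 relative depth between the early Tet and the early Ctrl libraries (vertical axis, bars are SE from the limma fit) for single bins against their distance from the start of Duxbl1 in kb; shading marks the 3 repeated copies. Red points, the bins of Duxbl1 and Duxbl2, have an adjusted p below 0.05, and all 8 array bins lie at 0.23 or above.

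Acute treatment itself was compared within the early libraries. Acute minus pre-treatment, averaged over the genotypes, limma called 0 of 47924 bins (0%), and 2530 had an unadjusted p under 0.05. None of the array bins was among those, and they had a mean log2 difference of 0.06 (−0.00 to 0.09). The Duxbl1 bin had 0.08 ± 0.09, the Duxbl2 bin 0.03 ± 0.09 and the Duxbl3 bin −0.002 ± 0.095 (log2, SE). The array had 4.04 copy equivalents before and 4.36 after treatment in Ctrl, and 5.29 before and 5.33 after in the Tet line.

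The test of whether treatment acted differently in the genotypes also called 0 of 47924 bins (0%) in limma, with 2195 at an unadjusted p under 0.05. The array bins had a mean of −0.11 (log2; −0.55 to 0.19), 1 of them at an unadjusted p under 0.05. With 1 library in each of these 4 groups, the counting intervals of the array before and after treatment overlapped in both genotypes.

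Dnmt TKO had the lowest value of all. Its array depth was below that of the other 10 libraries in 8 of 8 array bins, in 0 of 11 single-copy members and in 4 of 79 flank bins, with a background of 14.2%. Against long-term Ctrl its 2.53 copy equivalents were a ratio of 0.310, and against early Ctrl 0.601. With 1 library there is no replicate check and no test. The study's methods cite earlier reports for the Dnmt TKO cells, so genotype and line of cells cannot be told apart in these comparisons.

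Other homeobox genes and genes of the 2-cell program were looked up in the same fit. Of the list of 10 homeobox genes, Cphx1, Cphx2 and Cphx3 are in the array, and the other 7 (Duxf3, Obox1, Obox2, Obox3, Obox5, Obox6 and Crxos) fell in 7 bins. None of these bins was called in any early contrast, and their early Tet minus Ctrl differences were −0.12 to 0.05 on the log2 scale. The bin of Duxf3, the Dux gene itself, had a mean relative depth of 3.57 in long-term Ctrl, 3.56 in early Ctrl, 3.57 in long-term Tet iTKO, 3.69 in early Tet and 3.97 in Dnmt TKO. The Obox2 bin was lower in Dnmt TKO, at 0.956 against 1.44 to 1.54 in the other group means.

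All 21 genes of the 2-cell-like list, which holds Zscan4a to Zscan4f, Tcstv1, Tcstv3, Zfp352, Usp17la to Usp17le, Tdpoz1 to Tdpoz5, Dppa2 and Dppa4, were found, in 18 bins. None was called in an early contrast, and the median early difference was 0.03 on the log2 scale (−0.17 to 0.22), against 0.00 over all bins. In Dnmt TKO the bin of Tdpoz4, a TRAF-domain gene, had 2.64 against group means of 1.02 to 1.14 in the other libraries. The other Tdpoz bins were also above all other group means in this 1 library. They had 1.77 for Tdpoz3, 1.38 for the bin of Tdpoz1 and Tdpoz2, and 1.22 for Tdpoz5.

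The 5 autosomal bins outside the flanks whose profile over the 11 libraries was most like that of the interval had Pearson's r of 0.935 to 0.960 with the log2 mean of the members. These are descriptions, and no test was made of them. Of these, 3 lay on chromosome 14 between 69264331 and 69614254. They hold Slc25a37 and Synb, Entpd4 and Gm16867, and Entpd4b and Loxl2, and in the last the group means were 1.04 in long-term Ctrl, 0.692 in early Ctrl, 0.684 in long-term Tet iTKO, 0.730 in early Tet and 0.434 in Dnmt TKO. The others were a bin of chromosome 6 with the vomeronasal receptor gene Vmn2r21 and a bin of chromosome 12 at 32413117 to 32463139 with no protein-coding gene, the bin with the highest r, where the group means ran only from 0.833 to 1.04.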

How the data were processed

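Bulk genomic DNA was sequenced from PCR-free libraries. Per the study's methods, single-end reads were mapped to mm10 with BWA-mem and optical duplicates were removed with Picard. The submitters' processing notes name BSMAP 2.74v, which the methods give for bisulfite libraries. The deposited depth is a signal, the mean coverage per bin, not scaled to the library. The deposited log2 column, made by the authors, equalled log2 of the depth within 4.05e-05 and served as a check only. Base sums under 400 were multiples of 50 in 95.4% of 3432 values, so read numbers are base sums divided by 50. The methods state a minimum read length of 70, which these values do not show, so the intervals of the array were also computed with 70 bases, a choice made after seeing the data. With 215 to 315 reads in a median bin, precision of single bins is limited by counting.

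Depth was divided by the median autosomal bin of each library. Differences were tested on log2(relative depth + 0.01) with limma 3.58.1 (R 4.3.3), all 7 groups in 1 fit with 4 residual degrees of freedom, two-sided, Benjamini-Hochberg over all bins with a mean of at least 0.25, which every autosomal bin passed. Copies were found with minimap2 2.31. Tables and plots were made in Python 3.11.15 with pandas 2.3.3, scipy 1.17.1 and matplotlib 3.10.9. The study describes 3 populations from different embryos for each genotype, but the labels do not say which embryo a library came from, so the spread behind the p-values may be biological or technical. Replicate numbers did not pair the long-term libraries (correlations of deviations 0.001, −0.005 and 0.002). Named were the Duxbl genes, the protein-coding genes of the interval, the 5 bins most like it and 2 gene lists. The members, lists and tests were chosen with earlier results of these data known. Scaling, GC correction, filters, pseudocount, window size, replicate block and left-out libraries were varied.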

Additional observations from a re-analysis of the deposited data

How the results depend on the processing

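The early Tet minus Ctrl test called 2 members of 25 bins in all. Members called were 1 with bins of mean relative depth 0.5 to 1.5 only (11 bins in all), and 1 to 2 with each long-term library left out (23 to 36 in all), the 1 being without long-term Ctrl replicate 3. All bins called were 45 with the early libraries only and 45 with limma's robust fit along a trend of the variance. Windows of 8 bins, added after seeing the data, gave 1 member window of 13 called, and windows of 100 kb gave 3 of 23. With the replicate number as a block the test called 2 members of 29 bins. The replicate block changed no other call. Acute minus pre-treatment went from 0 to 1 bin with the early libraries only, with the variance trend and with windows of 8 bins, none of them a member, and to 0 elsewhere, and the interaction gave 0 throughout. The remaining settings stayed within 1.5 times.

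Over the 20 members, the long-term Tet iTKO minus Ctrl difference (−0.198) was −0.208 with GC correction, −0.442 over bins that touch the array, −0.220 as a median and −0.203 to −0.194 with each library left out. Long-term minus early in Ctrl (0.281) was 0.298, 0.617, 0.273 and 0.275 to 0.286 in turn. In Tet (−0.008) it was 0.003, 0.005, −0.024 and −0.020 to 0.004, thus of no settled sign. Dnmt TKO (0.785) had 0.444 over bins that touch the array and 0.935 as a median. The bins that touch the array leave out the 11 single-copy members, and the median is another summary of the same 20 bins.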
